A study of Homo sapiens with 2 samples.

Results

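The genes described here are 41 genes that are recurrently altered in prostate cancer, regulate chromatin or repair DNA. The question was where the deletion sites listed for the splicing factor SF3A1 lay in the bodies of these genes. A site was given to a gene when it lay inside the gene's RefSeq body on GRCh38, introns included and on either strand. Of the 2960 sites in the deposited list, 19 lay in these genes, and 13 of the 41 genes held at least 1. The other 28 held none.

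The data came from anti-SF3A1 crosslinking and immunoprecipitation sequencing (CLIP-seq) of C4-2B cells, a prostate cancer epithelial line of the LNCaP lineage, here a derivative prepared for CRISPR interference. No treatment is named in the labels. The cells were harvested 48 h after seeding and received 400 mJ/cm2 of ultraviolet light (254 nm), and immunoprecipitation used 2 µg of antibody. There were 2 libraries of 1 group and no control group, and the deposited list pools them, so no value below has an error between replicates. Input libraries were not analysed here. In the same list KLK3, which marks prostate luminal cells, held 4 sites, KLK2, FOLH1 and TMPRSS2 held 1 each, and STEAP2 held none.

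SF3A1 is a subunit of the U2 small nuclear ribonucleoprotein, the particle that recognises the intron branch point early in spliceosome assembly. The protein therefore meets unspliced transcripts, whose introns are part of the gene bodies used here. During reverse transcription a base with a crosslinked peptide may be passed over, and the missing base may then record the place of contact. Each site in the list is a single base with a count of tags over it and a count of tags that carried the deletion, filtered by the authors at an FDR of 10 percent. The lowest deleted-tag count in the list was 13, so a gene without a listed site may still have been covered by tags. The bases at the sites cannot be shown, because no genome sequence was used here.

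The 13 genes with a site made up 31.7% of the 41 (95% Clopper-Pearson interval 18.1 to 48.1). Over all 19862 nuclear protein-coding genes, 10.1% held a site. Many of the 41 genes are long, with a median body of 90.3 kb against 24.5 kb for protein-coding genes, and long genes hold sites more often. Each gene was therefore set beside the 100 other protein-coding genes nearest to it in length, 50 shorter and 50 longer. Among these length neighbours 17.9% held a site. Among sites with more than the median of 50 deleted tags, the shares were nearer, at 12.2% of the 41 genes against 10.3% of their length neighbours. The intervals cover counting error only, and no test of the gene list was made.

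**Figure D1:**
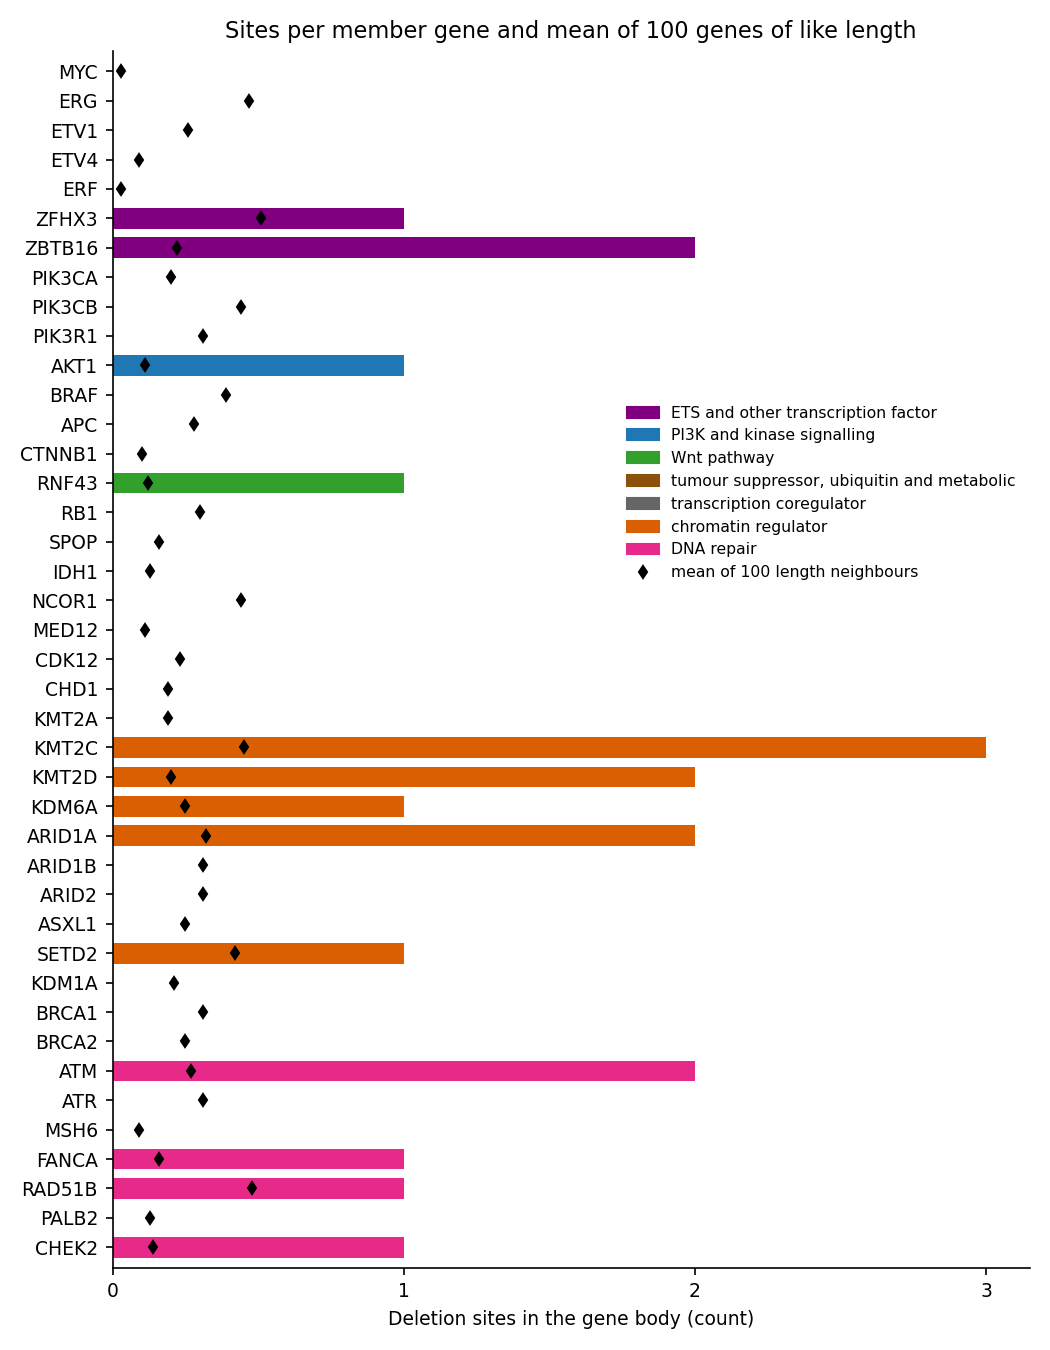
Number of deletion sites in the body of each of the 41 genes (bars, coloured by functional group) and the mean number in the 100 protein-coding genes nearest in length (black diamonds). KMT2C reached 3 sites, ZBTB16, ARID1A, KMT2D and ATM 2 each, 8 genes 1 each, and 28 genes none.

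Sites were found in genes of every length class above 20 kb. Of the 7 genes over 200 kb, 4 held a site (57.1%, 95% Clopper-Pearson interval 18.4 to 90.1), against 22.2% of 1392 other protein-coding genes of that length. From 100 to 200 kb the count was 3 of 12 genes (25%) against 20% of others, and from 50 to 100 kb it was 4 of 12 (33.3%) against 14.7%. From 20 to 50 kb 2 of 6 genes held a site (33.3%) against 10.5% of others. None of the 4 genes up to 20 kb did, against 4.27% of others. The share in other genes lay inside the counting interval in every one of the 5 classes. The median body measured 146 kb in the 13 genes with a site and 88.2 kb in the 28 without, and the ranges overlapped widely: the shortest gene with a site, AKT1, measured 26.4 kb, and the longest without, ARID1B, 435 kb.

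**Figure D2:**
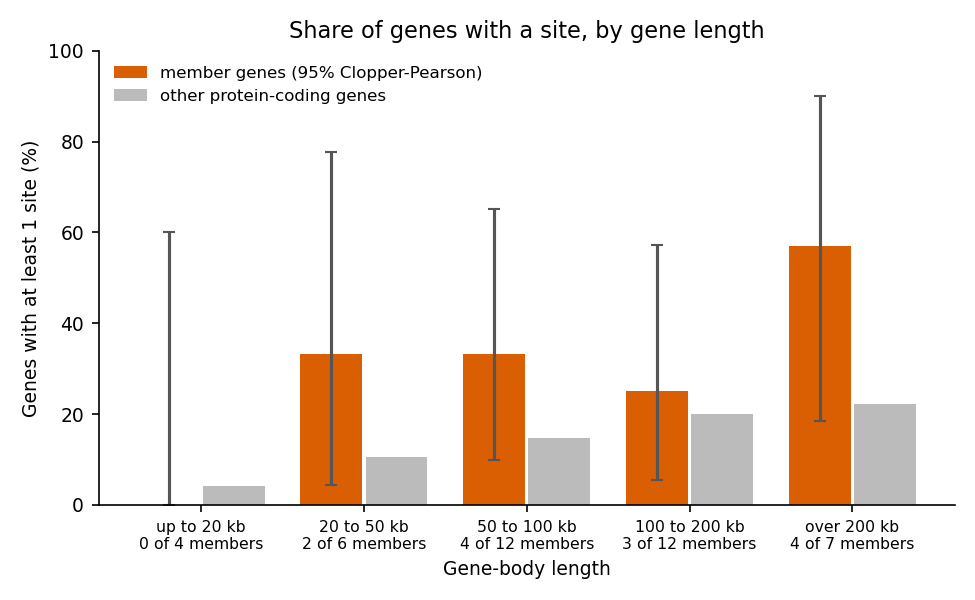
Share of genes with at least 1 site (percent) by class of gene-body length, for the 41 genes (orange, 95% Clopper-Pearson intervals) and the other protein-coding genes (grey). The share in the other genes runs from 4.27% up to 20 kb to 22.2% over 200 kb, and the widest interval spans 4.33 to 77.7%.

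Chromatin regulators held 9 of the 19 sites. Of the 11 genes in this group, 5 had a site (45.5%, 95% Clopper-Pearson interval 16.7 to 76.6), against 20.8% of their length neighbours. Above the median of 50 deleted tags, 3 of the 11 kept a site: ARID1A, KDM6A and KMT2C. The 20.8% counts all sites and is no background for that number. At this cut 10.3% of the length neighbours of the whole gene list held a site. The share among the neighbours of the chromatin group alone was not computed at this cut. The 11 bodies held 5.17 sites per Mb (exact Poisson interval 2.36 to 9.82), against 2.05 per Mb over all protein-coding gene bodies. The genes with a site were the histone methyltransferases KMT2C, KMT2D and SETD2, the histone demethylase KDM6A and the SWI/SNF subunit ARID1A.

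KMT2C, which encodes an enhancer histone methyltransferase and lies on chromosome 7 (152134925 to 152436003), held 3 sites, the highest number among the 41 genes. At 152247249 all 33 tags carried the deletion, at 152225561 all 99 tags, and at 152137019 all 49 tags. All lay on the minus strand, which is the strand of the gene. The site at 152225561 and that at 152247249 were 21.7 kb apart, and the third lay 2.09 kb from the 3′ end of the gene. Only 3 of the 100 length neighbours of KMT2C held as many sites or more, and 0.629% of all protein-coding genes held at least 3. Parts of KMT2C have near-identical copies elsewhere in the genome, so the placing of these tags carries some uncertainty.

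KMT2D, the closest relative of KMT2C, is a much shorter gene on chromosome 12 (49018978 to 49060794) and held 2 sites on its own strand. At 49058646, 2148 nt from the gene's start, all 14 tags carried the deletion (95% Clopper-Pearson interval of the share 76.8 to 100%). At 49034951, 27 of 28 tags did (96.4%, 81.7 to 99.9). These are thinly covered sites: only 1.59% of sites in protein-coding genes had fewer tags than the first. The sites lay 23.7 kb apart, and 2 of the 100 length neighbours held as many sites or more. KMT2A, the related methyltransferase rearranged in leukaemia, held none in 90.3 kb.

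ARID1A, which encodes a DNA-binding subunit of the SWI/SNF chromatin remodeller on chromosome 1 (26696015 to 26782104), had the best covered sites of the 41 genes. At 26702453, 6438 nt from the gene's start, 290 of 291 tags carried the deletion (99.7%, 95% Clopper-Pearson interval 98.1 to 100), which ranked 19th by deleted tags among 2571 sites in protein-coding genes. At 26778810, 3294 nt from the 3′ end, all 129 tags did. Both lay on the plus strand, the strand of the gene, 76.4 kb apart near opposite ends of the body. The paralogue ARID1B, whose product takes the same place in the complex, held none in 435 kb, a length at which 21% of neighbours held a site. ARID2, a subunit of another form of the remodeller, also held none, in 178 kb.

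The other 2 chromatin regulators with a site had 1 each. SETD2, the methyltransferase that marks transcribed gene bodies, held its site on chromosome 3 at 47122915, with the deletion in all 22 tags. KDM6A, a demethylase that works with the KMT2C and KMT2D complexes, held its site on chromosome X at 44953329, with the deletion in all 81 tags. Each lay on the strand of its gene. A site was held by 29% of the length neighbours of SETD2 and 21% of those of KDM6A. The remaining chromatin regulators, the remodeller CHD1, the Polycomb-associated ASXL1 and the demethylase KDM1A, held none, and 16 to 18% of their neighbours did.

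Among the DNA repair genes, 4 of 9 held a site (44.4%, 95% Clopper-Pearson interval 13.7 to 78.8), against 18% of length neighbours, with 5 sites in all. Above the median of 50 deleted tags only ATM kept sites, so the count was 1 of 9. At this cut 10.3% of the length neighbours of the whole gene list held a site, so the higher share of repair genes rested on thinly covered sites. The share among the neighbours of the repair genes alone was not computed at this cut. ATM, the kinase that signals DNA double-strand breaks, lies on chromosome 11 (108223067 to 108369102) and held 2 sites on its own strand. All 69 tags carried the deletion at 108227929 and all 69 at 108301033, which lie 73.1 kb apart. The first is 4862 nt from the 5′ end of the body, and 4 of the 100 length neighbours held as many sites or more. ATR, the kinase that responds to stalled replication and a relative of ATM, held none in 129 kb.

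The remaining repair genes with a site had 1 thinly covered site each, with the deletion in every tag. FANCA, of the Fanconi anaemia core complex, had 25 tags on chromosome 16 at 89788524. RAD51B, which acts in homologous recombination, had 28 tags on chromosome 14 at 68073755, in a body of 863 kb. CHEK2, the checkpoint kinase downstream of ATM, had 19 tags on chromosome 22 at 28719492. All 3 lay on the strand of their gene. CHEK2 has partial copies elsewhere in the genome. Whether they cover this site was not examined, so its placing is uncertain. In the list, BRCA1, BRCA2 and PALB2, which act together in homologous recombination, held no site, nor did the mismatch repair gene MSH6, while 9 to 23% of the neighbours of these 4 genes did.

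Of the 7 transcription factor genes, 2 held a site (28.6%, 95% Clopper-Pearson interval 3.67 to 71), against 14.9% of length neighbours, and neither is an ETS gene. Neither kept a site above the median of 50 deleted tags. ZBTB16, a zinc finger repressor induced by androgen and on chromosome 11 (114059711 to 114256770), held 2 sites on the plus strand, 6490 nt apart. At 114061522 all 23 tags carried the deletion. At 114068012, 29 of 33 tags did (87.9%, 95% Clopper-Pearson interval 71.8 to 96.6), the lowest share among the 19 sites. Read along the strand of the sites, both lay in the first 4.21% of the body, and 5 of the 100 length neighbours held as many sites or more.

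ZFHX3, a large homeodomain and zinc finger factor on chromosome 16 (72782885 to 73891930), was the exception in strand. Its site at 72788571, with the deletion in all 48 tags, lay on the plus strand, whereas ZFHX3 is read from the minus strand. The same base lies in the body of the long noncoding gene ZFHX3-AS1 (72665133 to 72821654), which is read from the plus strand. The site therefore matched the orientation of the antisense gene, and no site lay on the strand of ZFHX3. The ETS genes ERG, ETV1 and ETV4, which are fused to androgen-driven promoters in many prostate tumours, the ETS repressor ERF and MYC held none. The background of genes of like length differed greatly among them: 32% of the length neighbours of ERG (295 kb) held a site but 3% of those of ERF (7.56 kb) and of MYC (7.52 kb).

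The signalling genes with a site were AKT1 and RNF43. Of the 5 PI3K and kinase genes, 1 had a site (20%, 95% Clopper-Pearson interval 0.505 to 71.6), against 20.6% of length neighbours. AKT1, the kinase downstream of PI3K, held it, below the median of 50 deleted tags, with the deletion in all 19 tags on chromosome 14 at 104795119, on the strand of the gene and 629 nt from its start, the shortest such distance among the sites. The catalytic subunits PIK3CA and PIK3CB, the regulatory subunit PIK3R1 and the MAP kinase pathway gene BRAF held none. Of the 3 Wnt pathway genes, 1 had a site (33.3%, 0.84 to 90.6), against 14% of length neighbours. It lay in RNF43, a ubiquitin ligase that lowers Wnt receptor levels, on chromosome 17 at 58355567, with the deletion in all 69 tags, 3067 nt from the 3′ end. Neither APC nor CTNNB1, the scaffold that promotes β-catenin decay and the gene for β-catenin itself, held a site.

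No site fell in the last 2 groups. The tumour suppressor RB1, the ubiquitin ligase adaptor SPOP and the metabolic enzyme gene IDH1 held none of 3 (95% Clopper-Pearson upper limit 70.8%), against 15% of length neighbours. The corepressor NCOR1, the Mediator subunit MED12 and the transcription elongation kinase CDK12 also held none of 3 (upper limit 70.8%), against 17.7%. With groups this small a count of 0 sets almost no limit. For all 28 genes without a site, the nearest site outside the body was over 10 kb away. The smallest distance was 16412 nt, at BRAF. Such distances were not taken for other genes, so these have no background to be read against.

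**Figure D3:**
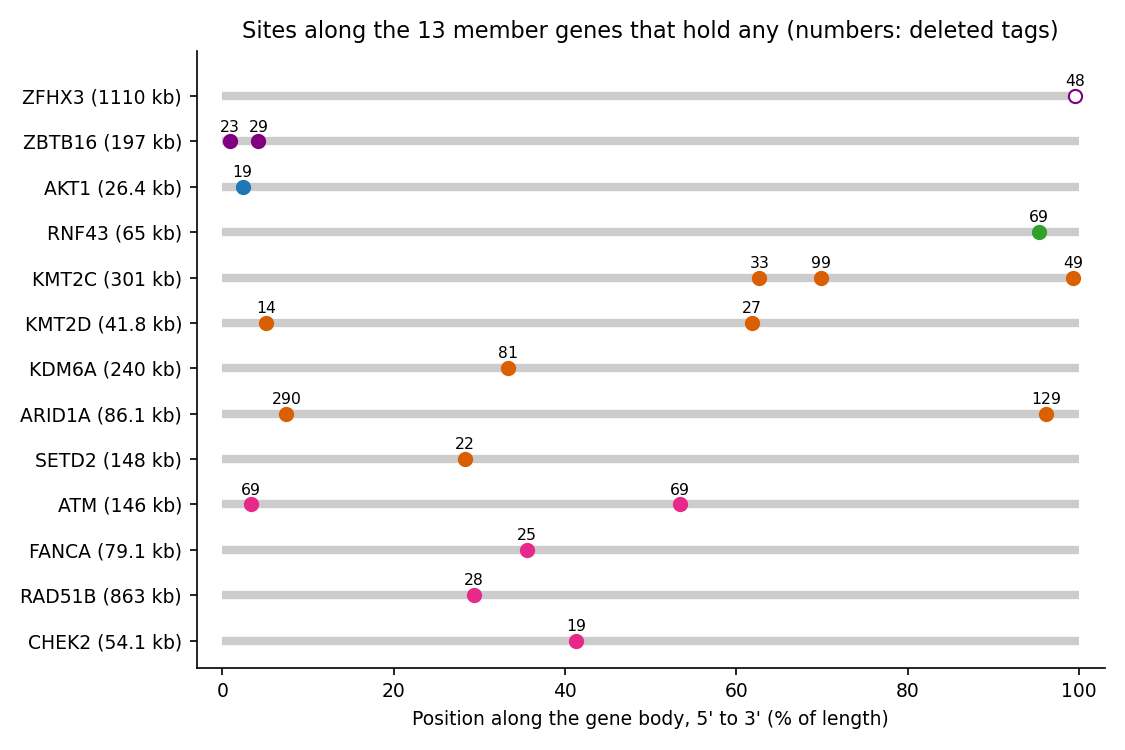
Position of the 19 sites along the 13 genes that hold any, in percent of gene-body length from the 5′ to the 3′ end, with the number of deleted tags above each point. The open point in ZFHX3 is on the strand opposite to the gene, and ZBTB16 is drawn along the strand of its sites. A site lies within 5 kb of an end of the body in AKT1, ARID1A, ATM, KMT2C, KMT2D, RNF43 and ZBTB16.

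Outside ZFHX3, sites lay on the strand of the gene wherever it was known. For 16 of the 19 sites the gene strand was known and no other gene overlapped, and all 16 lay on the gene's strand (100%, 95% Clopper-Pearson interval 79.4 to 100). Of 1928 such sites in other protein-coding genes, 96.6% did (95.7 to 97.3). Sites lay along the whole body, but 6 of the 16 were within 5 kb of an end (37.5%, 15.2 to 64.6), 3 at the 5′ and 3 at the 3′ end. In other protein-coding genes 26.2% of 1862 sites were, a value inside that interval. Those genes were not matched for length, and a fixed window covers a larger part of a short gene. The 5 kb window was chosen after the positions were known. Exons and introns were not annotated here, so terminal exons and introns cannot be told apart.

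Most of the 19 sites showed the deletion in all of their tags. These numbered 16 (84.2%, 95% Clopper-Pearson interval 60.4 to 96.6), against 77.3% of 2552 other sites in protein-coding genes. The 3 exceptions were the sites already given in ARID1A, KMT2D and ZBTB16. Only the ZBTB16 site had a share under 90%, and 149 of the 2552 other sites did. Coverage was modest, with 14 to 291 tags and a median of 33, against a median of 52.5 tags at the other sites. A deletion carried in every DNA copy of the gene in the cells would also appear in every tag. Whether any site is a deletion in the DNA, in all copies or some, was not tested.

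**Figure D4:**
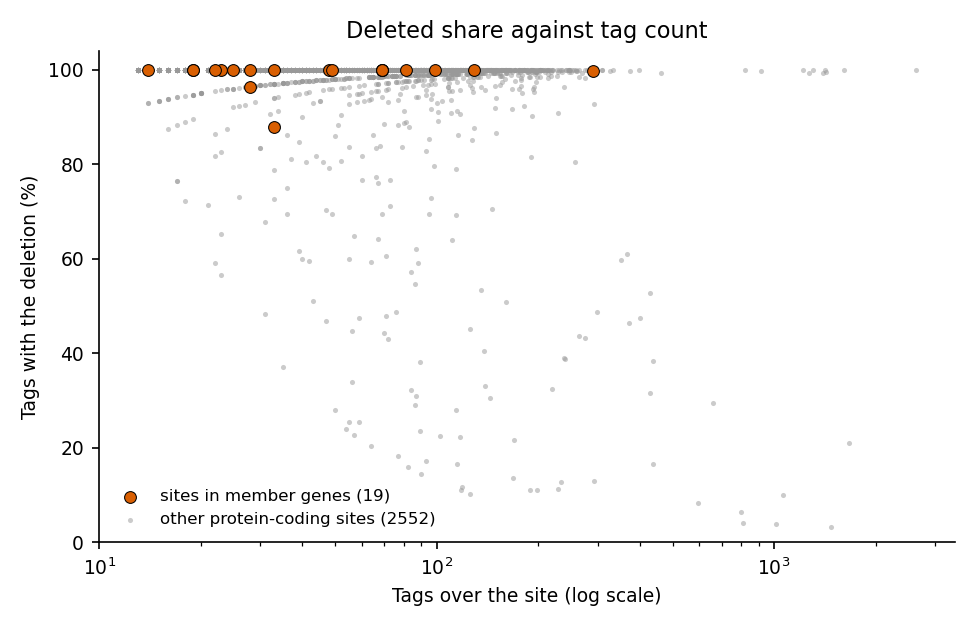
Share of tags with the deletion (percent) against the number of tags over the site (log scale), for the 19 sites in the 41 genes (orange) and 2552 other sites in protein-coding genes (grey). The 19 sites lie at 87.9% or above, and the grey points reach down to 3.27%. Under 90% lie 1 of the 19 sites and 149 of the 2552 other sites.

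Other genes of the same pathways were set beside the 41. Together the 8 lists held 249 genes, of which 54 had a site (21.7%, 95% Clopper-Pearson interval 16.7 to 27.3), against 13.7% of their length neighbours. Histone-modifying enzymes had 15 of 48 genes with a site (31.2%, 18.7 to 46.3), against 14.6% of length neighbours. Those with the most sites were the methyltransferase NSD3 with 3, and the acetyltransferase EP300, the demethylase KDM4B and the SET-domain gene KMT2E with 2 each. The EP300 sites had 80 of 82 and 106 of 108 deleted tags. Among the other CHD remodellers 3 of 8 had a site (37.5%, 8.52 to 75.5), against 18.8%: CHD2 and CHD6 with 3 and CHD4 with 1, while CHD1 had none. Other SWI/SNF subunits had 4 of 23 (17.4%, 4.95 to 38.8), against 12%: DPF3, BICRA, SMARCA2 and BRD7 with 1 site each. The BRD7 site lay on the strand opposite to BRD7 and also in the overlapping gene ADCY7. The list of other DNA repair genes had 13 of 54 (24.1%, 13.5 to 37.6), against 14.1% of length neighbours. XRCC5, which encodes the larger subunit of the Ku end-binding complex, held 4 sites, and the repair polymerase gene POLQ and the end-joining kinase gene PRKDC 2 each.

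The remaining lists cover signalling and transcription. Other PI3K and AKT pathway genes had 4 of 25 (16%, 95% Clopper-Pearson interval 4.54 to 36.1), against 15.3%, with 2 sites in PIK3C2A and 1 each in INPP4B and FOXO3. Other Wnt pathway genes had 5 of 23 (21.7%, 7.46 to 43.7), against 17%, among them ZNRF3, the paralogue of RNF43, with the deletion in all 155 tags, GSK3B and AXIN1. Other ETS genes had 2 of 24 (8.33%, 1.03 to 27), against 11.2%: the epithelial factors EHF with 4 sites and SPDEF with 1. At one EHF site only 37 of 170 tags carried the deletion (21.8%, 15.8 to 28.7), a share below that of any site in the 41 genes. Other Mediator, kinase and corepressor genes had 8 of 44 (18.2%, 8.19 to 32.7), against 11.6%. In this list TBL1XR1, a partner of NCOR1 in the corepressor complex, held 4 sites with the deletion in all 180, 90, 155 and 131 tags, and MED13L held 3.

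**Figure D5:**
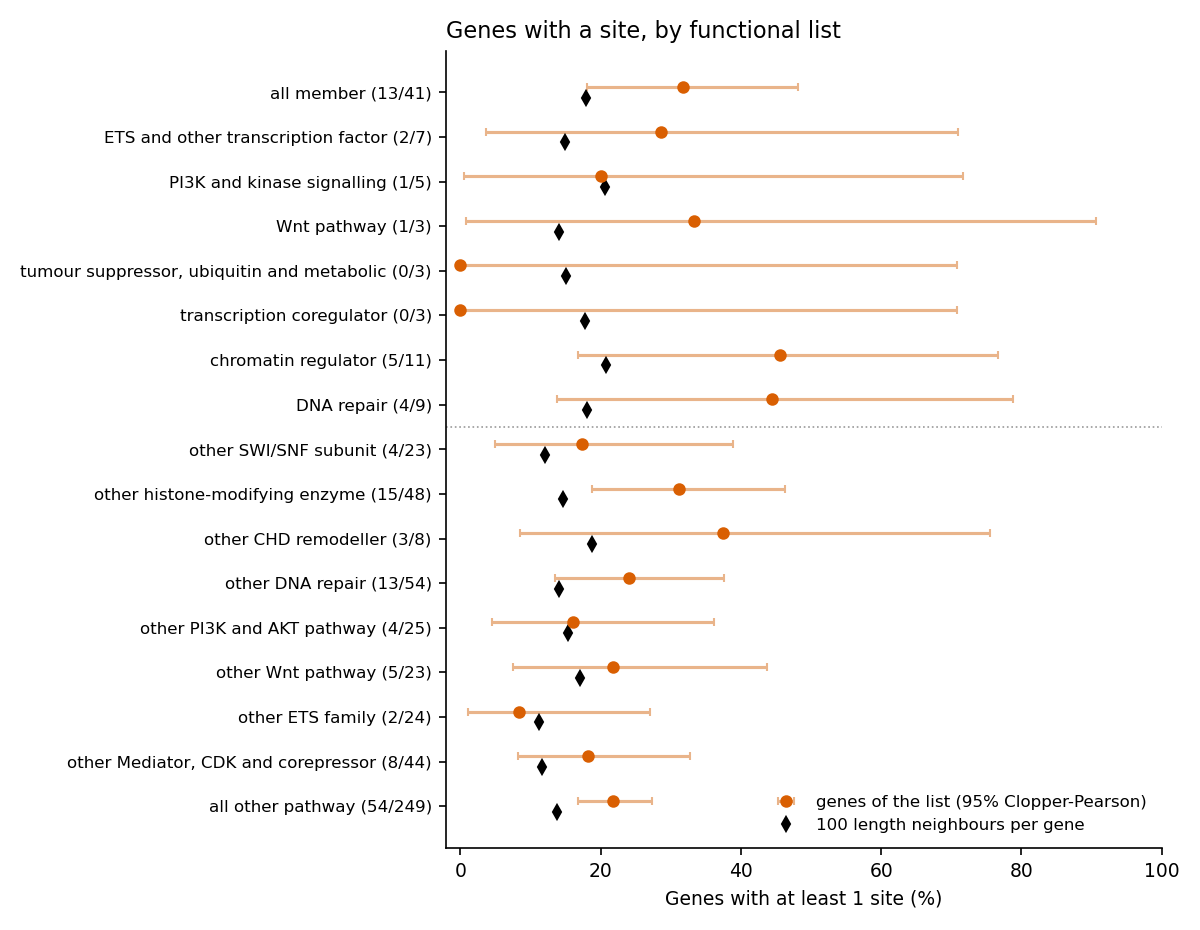
Share of genes with at least 1 site (percent) in each functional group of the 41 genes (above the dotted line) and in 8 lists of other genes of the same pathways (below), with 95% Clopper-Pearson intervals, and in 100 length neighbours per gene (black diamonds). The chromatin group stands at 45.5% beside 20.8% and the PI3K and kinase group at 20% beside 20.6%, with intervals that span most of the scale.

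The 41 gene bodies together held 2.94 sites per Mb (exact Poisson interval 1.77 to 4.59), against 2.05 per Mb over all protein-coding genes. The mean count in length neighbours, summed over the 41 genes, came to 10.2 sites, against the 19 found. By number of sites, 5 genes (12.2%) held at least 2, against 2.09% of all protein-coding genes, a share not matched for length. Among the 100 length neighbours of each of these 5 genes, 2 to 5 held as many sites or more. These 5 genes were picked by their own counts, so those numbers are no length-matched background for the 12.2%. The share with at least 2 sites among the length neighbours of all 41 genes was not computed. RNA abundance was not measured in these libraries, so the part that transcript level plays in these counts was not tested.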

How the data were processed

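Both libraries were pooled by the authors, as the file name states, into 1 list of deletion sites from crosslink-induced mutation site analysis of unique tags at an FDR of 10 percent. The deposited count of deleted tags and the other deposited field, the position's name with the tag count, were used as given, without normalization. On each of the 2960 lines both records of the number of deleted tags matched exactly. Per the submitters' processing notes, cutadapt, BWA 0.7.17, SAMtools, UMI-tools and hg38 were used; settings are not given in the sources used. Tags over the sites summed to 246057; depth per library is unknown.

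Gene bodies came from the RefSeq table of GRCh38.p14 (58952 rows used of 59792) and strands from RefSeq start sites, known for 37 of the 41 genes. Coordinates are 1-based. Length neighbours exclude the genes of the list described, and a gene can neighbour several. The genes and lists were chosen with earlier results of these data known. Every one of the 41 genes is named, and per other list up to 3 genes with the most sites, and KMT2E and BRD7, which tie with them and were added after their values were seen; some picked genes are not reported here. Intervals cover counting error only and treat tags as independent molecules. The neighbour comparison was tested on simulated data. Python 3.11.15, numpy 2.4.6, pandas 2.3.3, scipy 1.17.1 and matplotlib 3.10.9 were used.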

Additional observations from a re-analysis of the deposited data

How the results depend on the processing

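No paired analysis was possible because the deposited list pools both libraries, and for the same reason no replicate could be left out. Restricting the list to the 1466 sites above the median of 50 deleted tags left 5 of the 13 genes, ARID1A, ATM, KDM6A, KMT2C and RNF43, with 7 sites, or 12.2% of genes against 10.3% of length neighbours, and 1.08 sites per Mb; 3 chromatin regulators, 1 DNA repair gene, 0 transcription factor genes and 0 PI3K and kinase genes kept a site. Restricting it to shares under 0.9 (222 sites) left 1 site, in ZBTB16, or 2.44% of genes against 0.951% of length neighbours, and 0.155 sites per Mb; by construction 0% of these sites were complete, 1 transcription factor gene had a site, and 0 chromatin, 0 repair, 0 PI3K and kinase and 0 Wnt genes did. Using only sites on the gene's strand, or leaving out sites in overlapping genes, removed ZFHX3, so 1 transcription factor gene remained. The length-neighbour share was 16.1% without overlapping genes, 16.7% with 400 neighbours per gene and 16.6% with 10 length strata. Merging sites within 50 nt or widening bodies by 1000 nt kept the same 13 genes. The first and second of these settings leave fewer sites by construction; no other cause was tested.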
